A study of Mus musculus with 24 samples.

Results

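The livers of WSB/EiJ mice and of C3H/HeJ mice were set against each other after both strains had been fed the same choline- and folate-deficient diet. The comparison used 8 arrays, 4 per strain, out of 24 arrays in the series, and took them by the strain and diet named in the sample labels. WSB/EiJ is an inbred strain derived from wild mice, and C3H/HeJ is a classical inbred laboratory strain that carries a missense mutation in the endotoxin receptor Tlr4. All mice were male, began the diets at 8 weeks of age, stayed on them for 12 weeks and were 20 weeks old at collection. The deficient diet contained 0.17 percent methionine and no added choline or folic acid. Control WSB/EiJ and C3H/HeJ livers, 4 arrays each and used only to ask whether a strain difference was also there without the deficiency, came from mice given the same formula with 0.4 percent methionine, 0.3 percent choline bitartrate and 2 mg of folic acid per kg. Both formulas were built from amino acids and supplemented with iron, so every liver compared here had an iron-supplemented diet. Whether the 4 arrays of a group came from 4 animals is not given in the labels, so the p-values reflect the spread between arrays, part of which may be technical. A single age and sex and the lack of a collection time in the labels limit the comparison. The series title names strain differences in the severity of liver injury and in lipid metabolism genes as the question of the study.

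Choline is needed to make phosphatidylcholine, the phospholipid coat of the lipoproteins in which hepatocytes export triglyceride. Hepatocytes can also make phosphatidylcholine by methylating phosphatidylethanolamine with methyl groups from methionine, and folate carries the methyl groups that regenerate methionine. A diet that withholds these methyl donors makes fat accumulate in hepatocytes. In mice it is used as a model of steatohepatitis, in which cell injury, inflammation, scar formation by stellate cells and, later, liver tumours follow.

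Each value below is the signal of 1 array probe, scaled so that 100 equals the array's 75th percentile of processed signal, and levels are compared only within a probe. Differences are log2 WSB/EiJ minus C3H/HeJ on the deficient diet with the standard error of the limma fit (n = 4 arrays per strain), and a gene passed at a Benjamini-Hochberg adjusted p of at most 0.05. The words higher and lower are used of WSB/EiJ livers and only of genes that passed. Between 48.9% and 56.0% of the gene spots were well above background on the 8 arrays, and 0 were saturated. Albumin (Alb), the main plasma protein of hepatocytes, had scaled signals of 121200, 113700, 139700 and 127500 in WSB/EiJ livers, against 143400, 126400, 201300 and 199500 in C3H/HeJ livers, and its log2 difference of -0.39 ± 0.17 (adjusted p = 0.0943) did not pass. The signal of this liver gene was high on all 8 arrays. On the first principal component of the 16 arrays of both strains and diets, which held 55.3% of the variance, control arrays stood between 60 and 76.4. WSB/EiJ deficient arrays stood between -117 and -83.3, and C3H/HeJ deficient arrays at -44.4, -55.5, -17 and 16.5. C3H/HeJ replicate 4 was thus the deficient array nearest to the control arrays, and several results are given without it as well. The arrays lay on 3 slides, each with arrays of both strains, and within the slides 6885, 6716 and 6880 of the 6887 genes that passed kept the sign of their difference. These signs come from the arrays that gave the calls, so the agreement was largely built in and does not test an effect of slide. With slide as a fixed block 5808 genes passed.

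**Figure D1:**
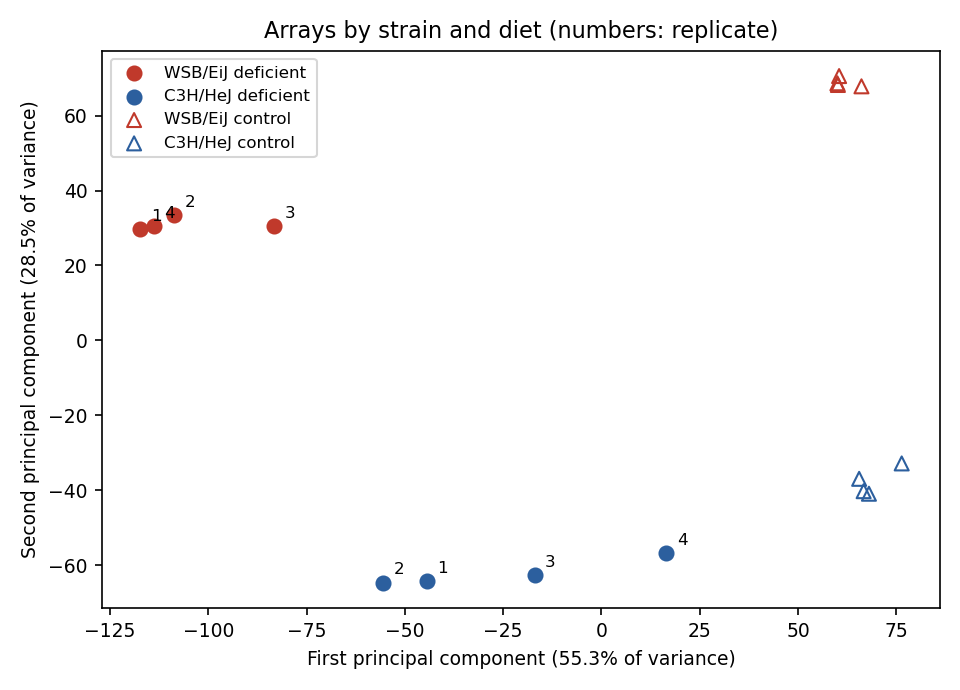
Position of each array on the first principal component (horizontal axis, 55.3% of the variance) and the second (vertical axis, 28.5%) of log2 signal over all tested genes, for deficient and control WSB/EiJ and C3H/HeJ livers, 4 arrays each. WSB/EiJ deficient arrays lie farthest from the control arrays, and C3H/HeJ deficient replicate 4, at 16.5, lies between the other C3H/HeJ deficient arrays and the control arrays.

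Of 15409 genes tested, 6887 (44.7%) differed between the strains on the deficient diet, 3165 (20.5%) higher and 3722 (24.2%) lower in WSB/EiJ. Among them, 1557 were at least 2-fold higher and 1313 at least 2-fold lower. The share that was higher, 46%, depended on the scaling: it was 63.8% with arrays centred on their medians and 62.5% with scaling on spiked-in control probes. The median difference of all genes was -0.076 on the main scale, 0.084 with median centring and 0.15 with spike-in scaling, and the medians of gene groups below are to be read against the first of these. The median of 8 groups changed sign under at least 1 of the other scalings: acute phase, adipose, folate, glucose, lipid droplet, lymphocyte, methionine cycle and urea cycle genes. In 6659, or 43.2%, of the tested genes the arrays of the strains did not overlap. Of 1791 genes that passed and had other tested probes, 1456 had all of them on the same side. The probes follow the reference genome, and their match to the sequence of either strain was not tested.

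Hsd17b13, an enzyme of the lipid droplet surface, differed in opposite directions on its probes. It had 2 probes, and the sequence of one is shown as the array files give it, 5′ to 3′, with the stop codon at its 3′ end in capitals.
Hsd17b13 variant 1 probe: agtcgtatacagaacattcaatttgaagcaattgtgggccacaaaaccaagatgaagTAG
This probe lies on the minus strand at chr5:104392792-104392851 (mm9) and covers the end of the coding region of variant 1. The second probe lies at chr5:104384701-104384760 on the same strand and was designed for variant 2. The variant 1 probe read 17450, 17020, 19380 and 17210 in WSB/EiJ livers, against 300.2, 238, 408 and 408 in C3H/HeJ livers, a log2 difference of 5.75 ± 0.18 (adjusted p = 4.75e-07). The variant 2 probe read 45.3, 39.8, 46.7 and 38.3 in WSB/EiJ livers, against 768, 557, 944 and 1046 in C3H/HeJ livers, a log2 difference of -4.25 ± 0.20 (adjusted p = 2.31e-06), with the p adjusted over the tested genes and this probe together. Within each probe the strains did not overlap, and the direction was turned round between the probes. In control livers the differences were 5.55 ± 0.10 and -4.62 ± 0.09, close to those on the deficient diet. The gene therefore cannot be given a single direction from these arrays.

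**Figure D2:**
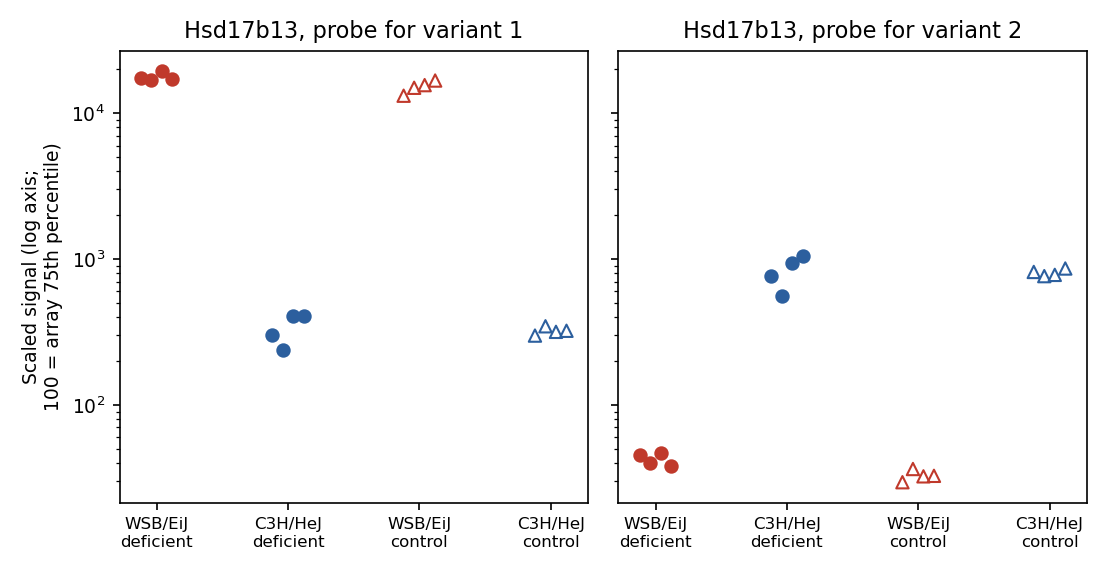
Scaled signal (log axis) of the 2 Hsd17b13 probes on each array of WSB/EiJ and C3H/HeJ livers on the deficient diet and on the control diet, 1 point per array. The variant 1 probe is higher in WSB/EiJ and the variant 2 probe higher in C3H/HeJ, on all arrays of both diets.

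Genes that store and take up fat did not move as a block. Of 19 lipid droplet proteins tested, 3 were higher and 6 lower (median -0.18). Hsd17b13, by its variant 1 probe, is counted among the higher ones. Cidec, which fuses lipid droplets, read 1526, 737, 1169 and 1022 in WSB/EiJ livers, against 699, 1319, 733 and 575 in C3H/HeJ livers, a difference of 0.45 ± 0.29 (adjusted p = 0.24). The 95% interval of that difference ran from -0.22 to 1.12, and the arrays of the strains overlapped. Plin2, the coat protein of hepatocyte droplets, was lower (-0.41 ± 0.12, adjusted p = 0.024), a call that ended under 10 of the alternative settings (adjusted p = 0.505 with spike-in scaling). Hilpda, which inhibits triglyceride breakdown, read 706, 609, 717 and 609.7 in WSB/EiJ livers, against 211, 179.9, 183 and 160.4 in C3H/HeJ livers, higher without overlap (1.85 ± 0.12, adjusted p = 1.41e-05). Fitm2, needed for droplets to bud from the endoplasmic reticulum, was lower (-3.87 ± 0.22, adjusted p = 7.76e-06), by a probe whose partner differed by -0.53. G0s2, an inhibitor of the main triglyceride lipase and named after its values were seen, was also lower (-2.42 ± 0.34, adjusted p = 0.000736).

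Of 20 genes of fatty acid uptake and PPAR-gamma action, 5 were higher and 8 lower, with 3 higher under spike-in scaling or without WSB/EiJ replicate 1, 2 or 3. Pparg, the adipogenic nuclear receptor, read 246, 236, 193 and 241 in WSB/EiJ livers, against 137, 132, 98.5 and 56.2 in C3H/HeJ livers and was higher (1.19 ± 0.27, adjusted p = 0.00802). Lpl, which releases fatty acids from circulating triglyceride and is also made by macrophages, was higher as well (1.71 ± 0.23, adjusted p = 0.000656). Mogat1, an acyltransferase of triglyceride synthesis and a known target of Pparg, went the other way. It read 7.14, 5.34, 21.7 and 17.2 in WSB/EiJ livers, against 357, 420.4, 402 and 99.6 in C3H/HeJ livers, a difference of -4.67 ± 0.59 (adjusted p = 0.000438). C3H/HeJ replicate 4 was the lowest of its group and still above every WSB/EiJ array. Cd36, a fatty acid transporter, differed by -0.05 ± 0.16 (adjusted p = 0.813), with a 95% interval from -0.42 to 0.31, and did not pass.

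Genes that make fatty acids and triglyceride were mostly lower in WSB/EiJ. Of 22 tested, 1 was higher and 15 were lower, with a median of -1.01. Thrsp, a lipogenic regulator that responds to thyroid hormone and carbohydrate, read 1137, 582, 849.9 and 724 in WSB/EiJ livers, against 11130, 5406, 22310 and 23020 in C3H/HeJ livers, a difference of -4.05 ± 0.45 (adjusted p = 0.000237). Scd1, the main stearoyl-CoA desaturase, read 2771, 2850, 3368 and 3931 in WSB/EiJ livers, against 27280, 13990, 39170 and 16590 in C3H/HeJ livers, a difference of -2.80 ± 0.31 (adjusted p = 0.000225). No WSB/EiJ array reached the lowest C3H/HeJ array in either gene. Fasn, the fatty acid synthase, differed by -1.51 ± 0.35 (adjusted p = 0.009), Acaca, acetyl-CoA carboxylase, by -0.79 ± 0.24 (adjusted p = 0.026) and Mlxipl, the carbohydrate-responsive transcription factor ChREBP, by -1.07 ± 0.11 (adjusted p = 0.000176). The mean over the probes of Mlxipl was -0.66. The call of Acaca ended under 11 of the alternative settings, with an adjusted p of 0.158 under spike-in scaling. Scd2, a desaturase isoform low in healthy adult liver and named after its values were seen, was the 1 gene that was higher (1.15 ± 0.29, adjusted p = 0.0131).

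The same direction held for fatty acid oxidation, where 3 genes were higher and 19 lower of 29 (median -0.68), or 12 lower with spike-in scaling. Within slides 1, 2 and 3 the median was -0.953, -0.07 and -0.7. Ppara, the nuclear receptor that drives this pathway, read 2850, 2640, 2290 and 2238 in WSB/EiJ livers, against 6019, 5983, 10090 and 9421 in C3H/HeJ livers and was lower without overlap (-1.62 ± 0.20, adjusted p = 0.000416). Pex11a, a peroxisome division factor, was lower too (-1.67 ± 0.14, adjusted p = 5.36e-05). Other targets of Ppara did not pass: Vnn1, a pantetheinase, was at 0.15 ± 0.18 (adjusted p = 0.502) and Cyp4a14, a fatty acid hydroxylase, at -0.35 ± 0.54 (adjusted p = 0.619). Fgf21, a hormone released by the stressed or fasted liver, was higher (1.51 ± 0.34, adjusted p = 0.00747). It read 2941, 3037, 1263 and 2921 in WSB/EiJ livers, against 1008, 1002, 979 and 506 in C3H/HeJ livers, and the lowest array of each strain, WSB/EiJ replicate 3 and C3H/HeJ replicate 4, stood apart from its group.

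Cholesterol synthesis and uptake genes were lower in 19 of 24 and higher in 0 (median -1.20). Stard4, a sterol carrier, read 286, 325, 296 and 253.4 in WSB/EiJ livers, against 1787, 1591, 2135 and 3446 in C3H/HeJ livers, a difference of -2.89 ± 0.23 (adjusted p = 4e-05). Msmo1 and Fdft1, enzymes of the sterol pathway, were at -1.90 ± 0.25 (adjusted p = 0.000559) and -1.46 ± 0.16 (adjusted p = 0.000205), and the other Fdft1 probe was at -0.31. On the control diet 2 of these 24 genes were lower in WSB/EiJ and 1 higher, where 18.2% of all tested genes were lower and 23.1% higher. Of 23 lipoprotein genes 7 were lower and 0 higher, with 4 lower under median centring or spike-in scaling and 12 with all 24 arrays in the fit. By their brightest probes the assembly genes Mttp and Apob did not pass. Mttp, the triglyceride transfer protein, was at -0.15 ± 0.14 (adjusted p = 0.386) and Apob, the structural protein of the particle, at -0.41 ± 0.18 (adjusted p = 0.0903). The other Apob probe was at -1.58 and the mean of its probes passed (-1.0, adjusted p = 0.000905), so the Apob result depends on the probe. The sterol exporters Abcg5 and Abcg8 were lower (-2.41 ± 0.27, adjusted p = 0.000241, and -2.98 ± 0.25, adjusted p = 5.51e-05), as was Tm6sf2, which helps to lipidate very low density lipoprotein (-0.99 ± 0.17, adjusted p = 0.00223).

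Bile acid genes followed, 11 lower and 2 higher of 22. The lower count was 8 with median centring and without replicate 4 of either strain. Their median was -0.935, -0.007 and -0.58 within slides 1, 2 and 3. Cyp7a1, which catalyses the first and rate-limiting step from cholesterol to bile acids, read 55.4, 91.4, 196 and 32.3 in WSB/EiJ livers, against 562, 999, 628 and 1232 in C3H/HeJ livers, a difference of -3.43 ± 0.52 (adjusted p = 0.00113). The hepatocyte transporters Slco1b2, for uptake, and Abcc2, for export into bile, were lower (-1.80 ± 0.19, adjusted p = 0.000167, and -1.43 ± 0.14, adjusted p = 0.000128). Abcc4, an export pump of the sinusoidal side that was named after its values were seen, was higher (1.77 ± 0.23, adjusted p = 0.000494).

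Genes of phosphatidylcholine synthesis, the pathway the diet deprives, were mostly lower on the main scale. Of 19 choline and phosphatidylcholine genes, 13 were lower and 2 higher (median -0.70). The lower count was 9 with spike-in scaling and 10 with median centring. Within slides 1, 2 and 3 the median was -0.96, -0.24 and -0.58. Pemt, which makes phosphatidylcholine by methylation, read 7808, 6970, 7617 and 6462 in WSB/EiJ livers, against 8971, 11860, 13570 and 15830 in C3H/HeJ livers, a difference of -0.77 ± 0.18 (adjusted p = 0.00782). Lpcat3, which remodels phosphatidylcholine, was at -1.28 ± 0.14 (adjusted p = 0.000176). Chka, the first kinase of the choline branch, read 2123, 2465, 2196 and 2350 in WSB/EiJ livers, against 535, 450.3, 394 and 426 in C3H/HeJ livers and was higher (2.35 ± 0.12, adjusted p = 4.16e-06). The Chka difference on the control diet was 2.26 ± 0.24, of about the same size.

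In the methionine cycle 2 genes were higher and 6 lower of 21. Mat1a, the hepatocyte enzyme that makes the methyl donor S-adenosylmethionine, read 4665, 3489, 7019 and 2802 in WSB/EiJ livers, against 12060, 11370, 16060 and 22900 in C3H/HeJ livers, a difference of -1.82 ± 0.32 (adjusted p = 0.00224). Gnmt, which consumes S-adenosylmethionine, and Bhmt, which remethylates homocysteine with betaine, did not pass (0.45 ± 0.36, adjusted p = 0.332, and -0.59 ± 0.26, adjusted p = 0.0903). The other Bhmt probes ranged from -2.21 to -1.31, and the mean of its probes passed (-1.42, adjusted p = 0.00369). Nnmt, which uses S-adenosylmethionine to methylate nicotinamide, read 220.1, 176, 483 and 297 in WSB/EiJ livers, against 51.7, 49.6, 89.0 and 686 in C3H/HeJ livers. Its difference of 1.29 ± 0.80 (adjusted p = 0.212) did not pass, C3H/HeJ replicate 4 being within the WSB/EiJ range and the other C3H/HeJ arrays far below it. Without C3H/HeJ replicate 4 it was 2.16 (adjusted p = 0.00316). Of 20 folate genes, 4 were higher and 5 lower. Mthfd2, a mitochondrial folate enzyme of growing cells, was higher (1.13 ± 0.30, adjusted p = 0.0159). Of 14 DNA methylation genes 6 were higher and 1 lower. The methyltransferase Dnmt3b was among the higher ones (1.16 ± 0.10, adjusted p = 6.63e-05), and Tet1, which oxidises methylcytosine, was the lower one (-1.37 ± 0.15, adjusted p = 0.000212). The mean over the probes of Dnmt3b was 0.77.

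**Figure D3:**
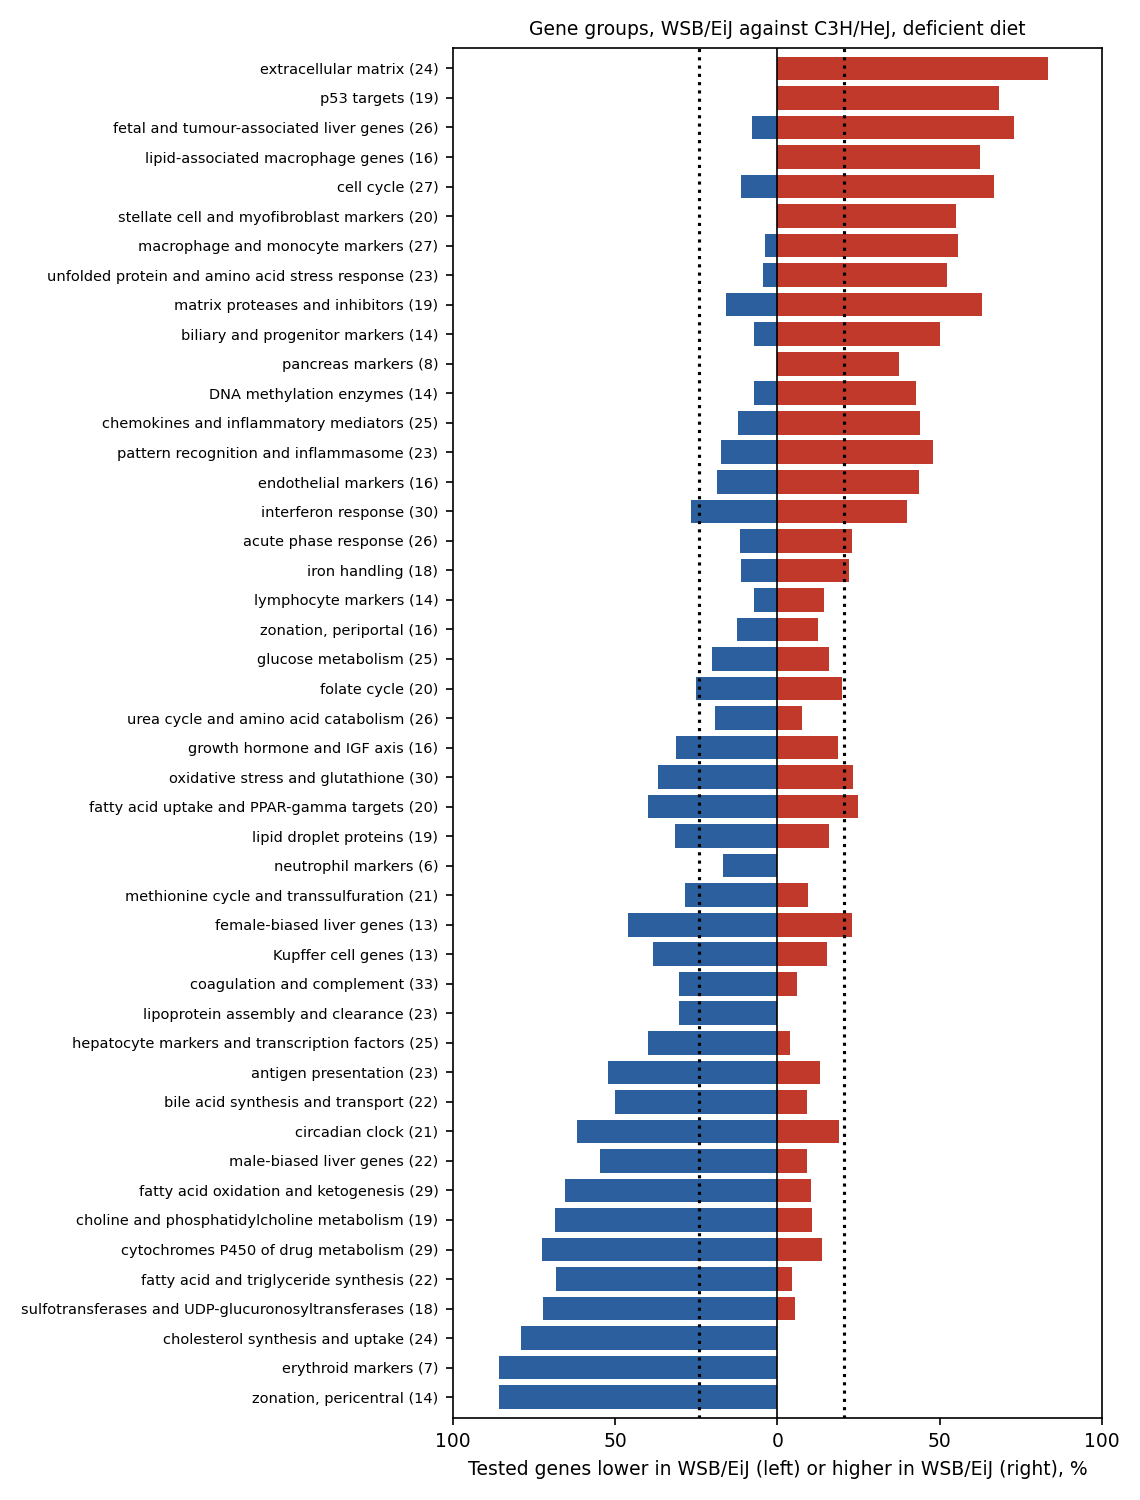
Number of tested genes of each gene group that were higher (right of 0) or lower (left of 0) in WSB/EiJ than in C3H/HeJ livers on the deficient diet at an adjusted p of at most 0.05, as a percentage of the genes tested, with the number tested in parentheses. Dotted lines mark the shares of all tested genes, 20.5% higher and 24.2% lower: matrix, macrophage and cell cycle groups lie beyond the first line and lipid, bile acid, pericentral and cytochrome P450 groups beyond the second.

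Scar-forming genes were higher in WSB/EiJ. Of 24 extracellular matrix genes, 20 were higher and 0 lower, with a median difference of 1.36. On the control diet 10 of them were higher and 1 lower. A test of the change in the strain difference between the diets passed for 3 of them up and 1 down. Over all tested genes it passed for 9.03% up and 13.5% down. These are bulk livers, in which more cells of a type and more RNA per cell cannot be told apart. Col1a1, the main chain of fibrillar collagen, read 7465, 6660, 3144 and 6273 in WSB/EiJ livers, against 2255, 2561, 1756 and 455 in C3H/HeJ livers, a difference of 1.93 ± 0.54 (adjusted p = 0.0194). The lowest WSB/EiJ array, replicate 3, lay above every C3H/HeJ array. The change of the Col1a1 difference between the diets did not pass (1.54 ± 0.67, adjusted p = 0.107). Loxl2 and Lox cross-link collagen. Loxl2 read 498, 568, 494 and 391 in WSB/EiJ livers, against 63.9, 72.4, 48.6 and 50.7 in C3H/HeJ livers (3.06 ± 0.17, adjusted p = 6.11e-06) and Lox, named after its values were seen, differed by 3.10 ± 0.60 (adjusted p = 0.00376, above background on 1 of 4 C3H/HeJ arrays). Col5a2, a minor fibrillar chain, was higher (3.36 ± 0.37, adjusted p = 0.000213). It read 76.21, 115.1, 137.8 and 88.67 in WSB/EiJ livers on the deficient diet, and every WSB/EiJ control array read above these. Its control-diet difference was larger (7.70 ± 0.29), and the difference moved down between the diets (-4.33 ± 0.50, adjusted p = 6.2e-05). In C3H/HeJ control livers its probe was above background on 0 of 4 arrays, so the size of these last values depends on a dim signal. The median was 2.27, 0.38 and 0.75 within slides 1, 2 and 3, and 12 matrix genes passed as higher once slide was a fixed block. The count of higher matrix genes was 19 without C3H/HeJ replicate 4, and over single arrays left out it ran from 12, without WSB/EiJ replicate 1 or 2, to 23. The call of Col1a1 ended with slide as a fixed block (adjusted p = 0.0573), without WSB/EiJ replicate 1 (adjusted p = 0.0528) and without WSB/EiJ replicate 2 (adjusted p = 0.0525).

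Enzymes that cut matrix and their inhibitors showed 12 genes higher and 3 lower of 19. Timp1, an inhibitor of matrix metalloproteinases made in injured liver, read 944, 837, 399 and 943 in WSB/EiJ livers, against 338, 361, 248 and 93.0 in C3H/HeJ livers, a difference of 1.68 ± 0.46 (adjusted p = 0.0179) whose call ended with slide as a fixed block (adjusted p = 0.0508). Mmp2, a gelatinase of stellate cells, differed by 2.71 ± 0.46 (adjusted p = 0.00192). Plau, the urokinase that activates plasmin, and its receptor Plaur were higher (3.85 ± 0.29, adjusted p = 3.3e-05, above background on 1 of 4 C3H/HeJ arrays, and 2.62 ± 0.33, adjusted p = 0.000443). Stellate cell and myofibroblast markers were higher in 11 of 20 and lower in 0 (median 0.92). Acta2, the smooth muscle actin of myofibroblasts, read 895, 470.2, 484 and 691 in WSB/EiJ livers, against 225, 201, 158 and 106 in C3H/HeJ livers, a difference of 1.89 ± 0.29 (adjusted p = 0.00113), and was also higher on the control diet (1.71 ± 0.46). Ccn2, a matricellular target of TGF-beta, and Hgf, the hepatocyte growth factor that stellate cells secrete, were higher by 3.09 ± 0.45 (adjusted p = 0.00093) and 1.77 ± 0.27 (adjusted p = 0.00112). The receptor Tgfbr1 differed by 0.97 ± 0.12 (adjusted p = 0.000475).

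Lipid-associated macrophage genes, which mark macrophages loaded with fat and debris, were higher in 10 of 16 and lower in 0 (median 1.24). Trem2, a receptor for lipids, read 3206, 3128, 2221 and 3079 in WSB/EiJ livers, against 322, 742, 373 and 206 in C3H/HeJ livers, a difference of 2.97 ± 0.35 (adjusted p = 0.000294). Gpnmb, a glycoprotein of these cells, read 892, 1016, 674 and 949 in WSB/EiJ livers, against 29.5, 138, 33.4 and 22.3 in C3H/HeJ livers, a difference of 4.39 ± 0.51 (adjusted p = 0.000291). Both genes separated the strains on every array. Atp6v0d2, a proton pump subunit, was higher by 2.83 ± 0.32 (adjusted p = 0.000254). Spp1, osteopontin, read 4716, 3416, 1089 and 5220 in WSB/EiJ livers, against 1355, 2739, 1304 and 518 in C3H/HeJ livers, and its difference of 1.30 ± 0.60 (adjusted p = 0.11) did not pass, although it did without WSB/EiJ replicate 3 (1.80, adjusted p = 0.0214).

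Kupffer cells are the macrophages that reside in healthy liver, and 5 of their 13 genes were lower and 2 higher, the lower count being 2 with spike-in scaling and 3 without WSB/EiJ replicate 1 or 4 or C3H/HeJ replicate 1. Timd4, a phosphatidylserine receptor of resident cells, read 7.74, 22.04, 15.6 and 17.8 in WSB/EiJ livers, against 70.3, 67.2, 52.1 and 59.0 in C3H/HeJ livers, a difference of -2.06 ± 0.30 (adjusted p = 0.000855). Clec4f, a lectin that defines Kupffer cells in mice, was lower (-1.33 ± 0.41, adjusted p = 0.0289), a call that ended under 8 of the alternative settings, among them without C3H/HeJ replicate 4 (adjusted p = 0.0645). Both were also lower on the control diet (-2.12 ± 0.19 and -0.97 ± 0.18), where 10 of the 13 Kupffer cell genes were lower and 1 higher. General macrophage and monocyte markers were higher in 15 and lower in 1 of 27 (median 0.67). In control livers 1 was higher and 19 were lower (median -1.06). Cd68, a lysosomal protein of macrophages, read 2088, 1907, 1592 and 1772 in WSB/EiJ livers, against 839.9, 1082, 715 and 496 in C3H/HeJ livers on the deficient diet, a difference of 1.28 ± 0.22 (adjusted p = 0.00229). Its control-diet difference was -1.21 ± 0.17, and the change in the difference was 2.49 ± 0.29 (adjusted p = 7.42e-05). Lyz2 and Lyz1, near-identical lysozyme genes whose probes may share signal, were higher by 2.78 ± 0.34 (adjusted p = 0.000363) and 2.47 ± 0.29 (adjusted p = 0.000306). Itgam, the alpha chain of complement receptor 3, was the lower member (-1.42 ± 0.21, adjusted p = 0.0011), and its other probes ranged from -0.58 to 1.07, so its direction depends on the probe. With the mean of its probes the adjusted p was 0.0911. Within slides 1, 2 and 3 the median of the macrophage markers was 1.24, 0.12 and 0.36, and with slide as a fixed block 11 were higher. With spike-in scaling 9 macrophage markers were higher, without C3H/HeJ replicate 4 12, without C3H/HeJ replicate 3 9, and without WSB/EiJ replicate 2 8.

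**Figure D4:**
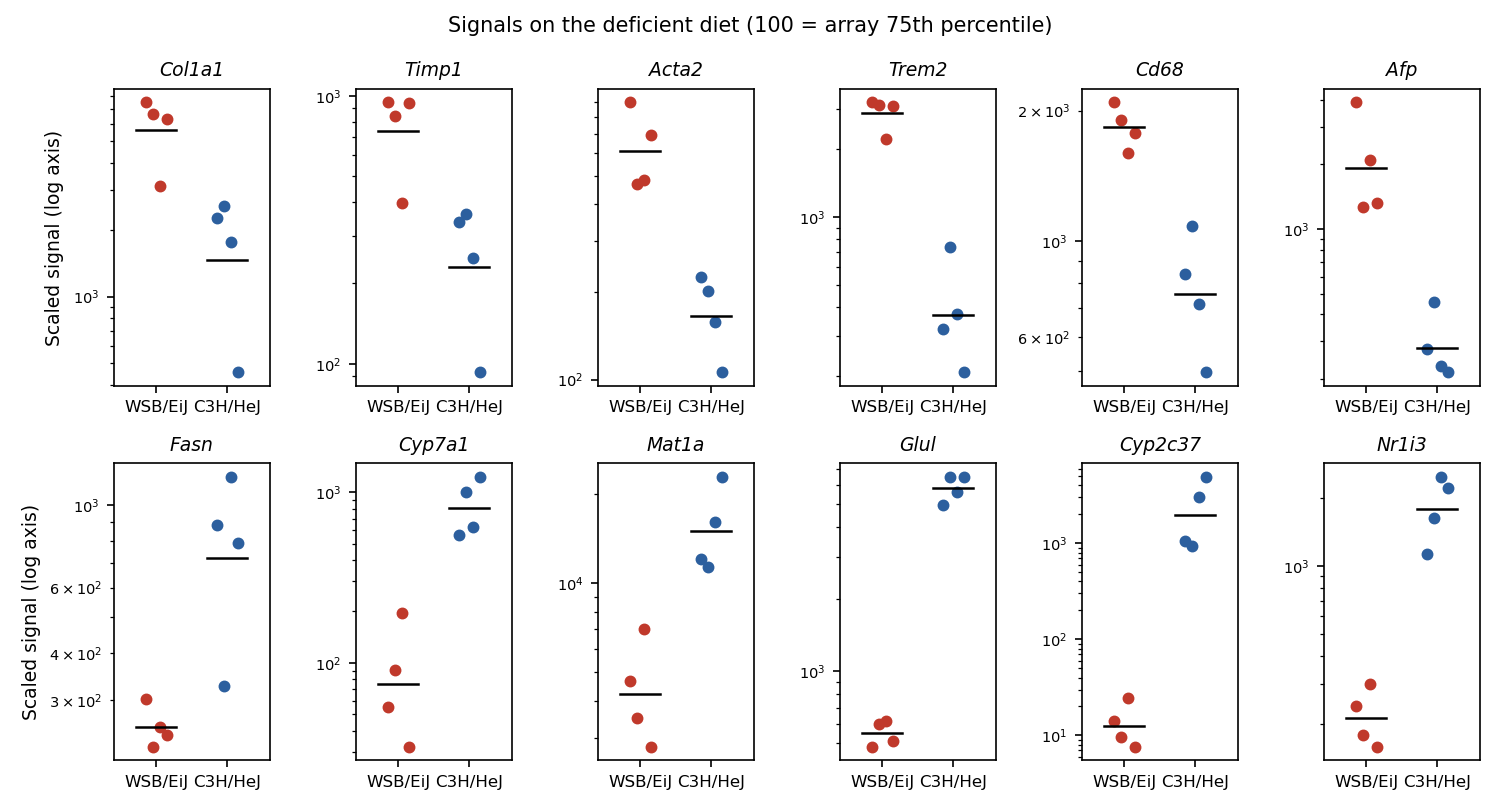
Scaled signal (log axis) of 12 genes on each array of WSB/EiJ and C3H/HeJ livers on the deficient diet, 1 point per array with a bar at the mean of the log2 values. Col1a1, Timp1, Acta2, Trem2, Cd68 and Afp are higher in WSB/EiJ, and Fasn, Cyp7a1, Mat1a, Glul, Cyp2c37 and Nr1i3 are higher in C3H/HeJ.

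Chemokines and inflammatory mediators were higher in 11 and lower in 3 of 25. Ccl2 and Ccl7 draw monocytes through the receptor Ccr2. Ccl2 read 1471, 1131, 1312 and 1238 in WSB/EiJ livers, against 656, 527, 519 and 248 in C3H/HeJ livers (1.48 ± 0.28, adjusted p = 0.00316, or 0.053 with all 24 arrays in the fit), and Ccl7 differed by 2.72 ± 0.31 (adjusted p = 0.000258). Cxcl9 and Ccl8, named after their values were seen, were lower (-2.72 ± 0.39, adjusted p = 0.000838, and -3.69 ± 0.86, adjusted p = 0.00904, above background on 2 of 4 WSB/EiJ arrays). Pattern recognition genes were higher in 11 and lower in 4 of 23. Tlr4, the endotoxin receptor that is mutated in C3H/HeJ, read 82.3, 79.7, 59.8 and 66.6 in WSB/EiJ livers, against 25.4, 27.5, 17.4 and 12.96 in C3H/HeJ livers, a difference of 1.84 ± 0.24 (adjusted p = 0.000567), with all WSB/EiJ arrays above all C3H/HeJ arrays. Tlr5, a receptor for flagellin, and Tlr12 were lower (-3.66 ± 0.42, adjusted p = 0.000283, above background on 1 of 4 WSB/EiJ arrays, and -2.77 ± 0.10, adjusted p = 9.46e-07).

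Interferon response genes split, 12 higher and 8 lower of 30. The lower count was 4 with spike-in scaling and 5 without replicate 1 of either strain. On the control diet 3 were higher and 16 lower, and the strain difference moved up between the diets for 19 of them and down for 4 in a test of the change itself, which moved 9.03% of all tested genes up and 13.5% down. Oas1a, a sensor of double-stranded RNA, read 11210, 10550, 13340 and 9482 in WSB/EiJ livers, against 2661, 2641, 2235 and 2480 in C3H/HeJ livers, a difference of 2.15 ± 0.13 (adjusted p = 9.41e-06), against -2.22 ± 0.14 on the control diet. Oas1g, a near-identical copy that may share signal, was at least 4.33-fold higher in WSB/EiJ, its probe not being well above background on any C3H/HeJ array (adjusted p = 3.44e-05). Mx1, an antiviral GTPase, was lower on the deficient diet (-2.50 ± 0.25, adjusted p = 0.000123) and on the control diet, where its probe was above background on 0 of 4 WSB/EiJ arrays. Among 23 antigen presentation genes 12 were lower and 3 higher. The class II chain gene H2-Ea read 483, 423, 273.1 and 489 in WSB/EiJ livers, against 15.4, 14.6, 6.93 and 2.63 in C3H/HeJ livers, a difference of 5.67 ± 0.53 (adjusted p = 9.31e-05, above background on 2 of 4 C3H/HeJ arrays), and H2-Aa read 0.859, 0.621, 0.86 and 1.25 in WSB/EiJ livers, against 142, 166, 38.7 and 26.2 in C3H/HeJ livers, a difference in the opposite direction. H2-Aa was at least 20.1-fold lower in WSB/EiJ, where its probe was not well above background on any WSB/EiJ array (adjusted p = 9.17e-05). Inbred strains carry different H2 alleles, H2 genes are near-identical copies of one another, and whether the probes match the alleles of both strains was not tested. With spike-in scaling 3 antigen presentation genes were lower.

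Lymphocyte and neutrophil markers differed in few members, 2 higher and 1 lower of 14 and 0 higher and 1 lower of 6. S100a8, a calcium-binding protein of neutrophils, was the lower neutrophil gene (-3.0 ± 0.45, adjusted p = 0.00106, above background on 1 of 4 WSB/EiJ arrays). Endothelial markers were higher in 7 and lower in 3 of 16, and with spike-in scaling in 1 and 1. Without C3H/HeJ replicate 3 the higher count was 2, without WSB/EiJ replicate 1 or 2 3, and without WSB/EiJ replicate 3 or 4 or C3H/HeJ replicate 4 4. Stab2, a scavenger receptor of sinusoidal endothelium, read 1149, 996, 1588 and 932 in WSB/EiJ livers, against 2072, 2131, 2713 and 3484 in C3H/HeJ livers, a difference of -1.16 ± 0.22 (adjusted p = 0.00349), while its relative Stab1 was higher (0.56 ± 0.13, adjusted p = 0.00823). Biliary and progenitor markers were higher in 7 and lower in 1 of 14 (median 1.25), and in 4 without WSB/EiJ replicate 1, 2 or 4. Sox9, a transcription factor of bile duct and progenitor cells, read 266, 254, 103 and 352 in WSB/EiJ livers, against 19.5, 31.3, 18.5 and 16.04 in C3H/HeJ livers, a difference of 3.43 ± 0.37 (adjusted p = 0.000205). Cldn4, a tight junction protein of duct cells, was higher by 2.08 ± 0.31 (adjusted p = 0.00103, above background on 1 of 4 C3H/HeJ arrays).

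Of 25 hepatocyte markers and transcription factors, 10 were lower and 1 higher. Nr1i3, the nuclear receptor CAR that senses foreign compounds, read 240.3, 179, 299 and 158 in WSB/EiJ livers, against 1123, 1627, 2479 and 2217 in C3H/HeJ livers, a difference of -3.07 ± 0.29 (adjusted p = 9.34e-05). Cebpa, a factor of mature hepatocytes, was lower (-1.27 ± 0.17, adjusted p = 0.00062). Hnf4a, the master regulator of hepatocytes, did not pass (-0.05 ± 0.16, adjusted p = 0.806). Within slides the median of this group was -0.81, 0.06 and -0.18, against -0.46 over all arrays, and 6 of its genes were lower with median centring. The summed signal of the macrophage markers ran from 44630 to 55370 in WSB/EiJ livers, against 19230 to 38870 in C3H/HeJ livers, and that of the extracellular matrix genes from 80340 to 103500 in WSB/EiJ livers, against 61770 to 75330 in C3H/HeJ livers. In control livers the macrophage sum ran from 7612 to 8722 in WSB/EiJ and from 9831 to 12140 in C3H/HeJ. The matrix sum there ran from 59320 to 66240 in WSB/EiJ and from 56550 to 68660 in C3H/HeJ. Each sum is weighted toward its brightest probes and does not measure cell content. The part of these gene groups in the hepatocyte differences was not tested. The lobule has zones, and genes expressed around the central vein were lower in 12 of 14 and higher in 0, with a median of -1.35, or -1.75, -0.91 and -1.62 within slides 1, 2 and 3. Genes expressed around the portal vein were higher in 2 and lower in 2 of 16 (median 0.21). The higher count was 5 without C3H/HeJ replicate 4 and 6 with quantile normalization.

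Glul, the glutamine synthetase of the innermost pericentral cells, read 482, 601, 617 and 509 in WSB/EiJ livers, against 4981, 6513, 5609 and 6506 in C3H/HeJ livers, a difference of -3.42 ± 0.14 (adjusted p = 1.1e-06). Oat, ornithine aminotransferase of the same cells, read 599, 574, 788 and 641 in WSB/EiJ livers, against 2151, 3821, 6224 and 11490 in C3H/HeJ livers, a difference of -2.93 ± 0.45 (adjusted p = 0.00113). Sp5 and Tbx3, targets of the Wnt signal that sets this zone, were lower (-4.03 ± 0.19, adjusted p = 2.75e-06, and -2.65 ± 0.14, adjusted p = 5.62e-06). Cyp2e1, a wider pericentral enzyme, was lower (-1.08 ± 0.21, adjusted p = 0.00419), and its highest WSB/EiJ array, replicate 3, stood apart from its group. Each of these 5 genes was lower in WSB/EiJ, and Glul, Sp5 and Tbx3 were also lower on the control diet (-1.62 ± 0.15, -1.44 ± 0.18 and -0.79 ± 0.17). Between control livers 6 of the 14 pericentral genes were lower and 2 higher.

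Amino acid and sugar metabolism showed smaller shares. Of 26 urea cycle and amino acid catabolism genes 2 were higher and 5 lower, and of 25 glucose genes 4 were higher and 5 lower. Without C3H/HeJ replicate 4, 5 of the urea cycle and amino acid genes were higher, and with normexp 8 of the glucose genes were. Pfkp, a phosphofructokinase isoform low in mature hepatocytes, was higher by 2.30 ± 0.40 (adjusted p = 0.0021), while Slc2a2, the hepatocyte glucose transporter, and Gys2, the liver glycogen synthase, were lower (-1.44 ± 0.17, adjusted p = 0.000331, and -1.93 ± 0.22, adjusted p = 0.000233). The other Pfkp probe differed by 0.22.

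Cell division genes were higher in WSB/EiJ in 18 of 27 and lower in 3 (median 0.83). In control livers 4 were higher and 4 lower. Mki67, a marker of dividing cells, read 631, 750.1, 593 and 603 in WSB/EiJ livers, against 280.7, 316, 239 and 288 in C3H/HeJ livers, a difference of 1.2 ± 0.13 (adjusted p = 0.000171). Ccna2, the cyclin of DNA replication, read 243, 283, 257 and 229.7 in WSB/EiJ livers, against 85.7, 117, 76.0 and 98.5 in C3H/HeJ livers, a difference of 1.44 ± 0.15 (adjusted p = 0.000154). Aurka, a mitotic kinase, and Ube2c, a mitotic ubiquitin-conjugating enzyme, were higher by 1.49 ± 0.13 (adjusted p = 6.81e-05) and 1.65 ± 0.17 (adjusted p = 0.000136). Ccnd1, the cyclin of entry into the cycle, did not pass (-0.47 ± 0.22, adjusted p = 0.118). Targets of the tumour suppressor p53 were higher in 13 of 19 and lower in 0 (median 0.66). Cdkn1a, the cell cycle inhibitor p21, read 1187, 1018, 972 and 816 in WSB/EiJ livers, against 108, 136, 91.6 and 62.2 in C3H/HeJ livers, a difference of 3.37 ± 0.23 (adjusted p = 2.03e-05), and its difference on the control diet was larger (5.82 ± 0.45, above background on 2 of 4 C3H/HeJ control arrays). The growth-limiting factors Btg2 and Trp53inp1 were higher by 2.23 ± 0.13 (adjusted p = 9.41e-06) and 1.98 ± 0.14 (adjusted p = 1.87e-05).

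Genes of the unfolded protein and amino acid stress responses were higher in 12 and lower in 1 of 23. On the control diet 11 of them were higher and 1 lower, and the change between the diets passed for 6 up and 2 down. Slc7a11, the cystine importer for glutathione synthesis, read 7.03, 10.4, 4.82 and 7.86 in WSB/EiJ livers, against 0.758, 0.817, 1.27 and 0.861 in C3H/HeJ livers and was at least 1.81-fold higher in WSB/EiJ, its probe not being well above background on any C3H/HeJ array (adjusted p = 5.26e-05). This adjusted p does not test the 1.81-fold bound, and over the alternative settings the log2 difference ran from 0.35 to 3.23. Ddit3, a transcription factor of prolonged stress, and Trib3, its target, were higher by 1.86 ± 0.21 (adjusted p = 0.00023) and 1.72 ± 0.22 (adjusted p = 0.000427). Asns, asparagine synthetase, was higher on both diets (1.99 ± 0.43, adjusted p = 0.00648, against 2.51 ± 0.39 on the control diet). The endoplasmic reticulum chaperone Hspa5, named after its values were seen, did not pass (0.22 ± 0.19, adjusted p = 0.357), and without C3H/HeJ replicate 4 it did (0.42, adjusted p = 0.0125). Oxidative stress genes were higher in 7 and lower in 11 of 30, the lower count being 4 with median centring and 7 without WSB/EiJ replicate 4 or C3H/HeJ replicate 3. Gpx3, a secreted glutathione peroxidase, was higher by 2.72 ± 0.22 (adjusted p = 4.71e-05), and Gstt1, a glutathione transferase, lower (-1.52 ± 0.17, adjusted p = 0.000252), with a mean over its probes of -0.99.

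Drug-metabolising enzymes were mostly lower. Of 29 cytochrome P450 genes, 21 were lower and 4 higher (median -1.27). Cyp2c37 read 14.0, 9.54, 24.7 and 7.62 in WSB/EiJ livers, against 1044, 947, 3004 and 4925 in C3H/HeJ livers, a difference of -7.28 ± 0.58 (adjusted p = 4.14e-05), or 155-fold lower. Cyp2c54 read 90.7 to 214 in WSB/EiJ livers, against 2986 to 15400 in C3H/HeJ livers, a difference of -5.65 ± 0.54 (adjusted p = 0.000106), and Cyp2c50 differed by -5.32 ± 0.56 (adjusted p = 0.000162). Cyp2b10, the classical target of Nr1i3, read 70.4, 28.8, 91.4 and 44.8 in WSB/EiJ livers, against 2621, 1093, 6561 and 1985 in C3H/HeJ livers, a difference of -5.52 ± 0.55 (adjusted p = 0.000125). Its control-diet difference was 0.14 ± 0.40 and did not pass, and that of Cyp2c37 was -1.50 ± 0.11. Genes of the Cyp2b and Cyp2c families are near-identical copies that can share signal, so the part of each copy is uncertain. Cyp3a11, a main target of the receptor PXR, was lower (-1.85 ± 0.15, adjusted p = 4.41e-05).

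Sulfotransferases and UDP-glucuronosyltransferases were lower in 13 and higher in 1 of 18. The higher one, the estrogen sulfotransferase Sult1e1, read 4050, 2476, 5932 and 5665 in WSB/EiJ livers, against 13.1, 38.7, 27.5 and 73.5 in C3H/HeJ livers. Its difference of 7.07 ± 0.50 (adjusted p = 2.32e-05) was the largest positive one among genes with established names that were above background on at least 3 arrays of each strain, and on the control diet it was 7.93 ± 0.50. Sult1c2 was lower on both diets (-6.63 ± 0.20, adjusted p = 4.56e-07, against -6.91 ± 0.25 on the control diet). All mice were male, and genes known to be more abundant in male liver were lower in 12 and higher in 2 of 22, with 7 lower without WSB/EiJ replicate 1. In control livers 12 of them were higher and 3 lower. Hsd3b5, a steroid dehydrogenase typical of males, read 119, 280.9, 441 and 479.5 in WSB/EiJ livers, against 3133, 4900, 6347 and 14530 in C3H/HeJ livers, a difference of -4.40 ± 0.55 (adjusted p = 0.000438). Female-biased genes were lower in 6 and higher in 3 of 13, the lower ones including Cyp2b9 (-6.14 ± 0.53, adjusted p = 5.82e-05, above background on 1 of 4 WSB/EiJ arrays) and Cyp2a4 (-3.53 ± 0.25, adjusted p = 2.03e-05). The growth hormone axis sets sex-biased patterns in liver, and its part in these differences was not tested. Of 16 growth hormone and IGF axis genes 3 were higher and 5 lower, where 20.5% and 24.2% of all tested genes were. Their median was -0.704, 0.198 and -0.109 within slides 1, 2 and 3. The receptor Ghr and the IGF carrier subunit Igfals were lower (-1.27 ± 0.23, adjusted p = 0.00275, and -1.70 ± 0.24, adjusted p = 0.000816). The insulin-repressed binding protein Igfbp1 was higher (4.33 ± 0.37, adjusted p = 5.44e-05, against 3.92 ± 0.42 on the control diet).

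Plasma protein genes were less divided. Acute phase genes were higher in 6 and lower in 3 of 26, with Saa1 and Hamp not passing (0.10 ± 0.22, adjusted p = 0.739, and -0.39 ± 0.38, adjusted p = 0.426) and Lcn2, a siderophore-binding protein of injured liver, higher (2.02 ± 0.28, adjusted p = 0.000726). Of 33 coagulation and complement genes 10 were lower and 2 higher. Genes of fetal liver and liver tumours were higher in 19 of 26 and lower in 2 (median 1.02). Afp, alpha-fetoprotein, read 3886, 1264, 2101 and 1324 in WSB/EiJ livers, against 274, 455, 229 and 214 in C3H/HeJ livers, a difference of 2.78 ± 0.38 (adjusted p = 0.000712). H19, an imprinted noncoding RNA of the fetal liver, read 7833, 5347, 4790 and 3006 in WSB/EiJ livers, against 289.7, 365, 297 and 146 in C3H/HeJ livers, a difference of 4.25 ± 0.35 (adjusted p = 4.62e-05). Cpe, carboxypeptidase E, read 1525, 1611, 652 and 1754 in WSB/EiJ livers, against 45.3, 89.8, 92.4 and 29.8 in C3H/HeJ livers, a difference of 4.48 ± 0.44 (adjusted p = 0.000121), and Akr1c18, an aldo-keto reductase, differed by 3.59 ± 0.37 (adjusted p = 0.000147). These 4 genes separated the strains on every array. Gpc3, a cell surface proteoglycan of liver cancer, Spink1 and Ly6d did not pass (0.95 ± 0.41, adjusted p = 0.091, -0.53 ± 0.25, adjusted p = 0.112, and 0.68 ± 0.30, adjusted p = 0.0989). Ubd, a ubiquitin-like modifier, was lower (-1.89 ± 0.43, adjusted p = 0.00786).

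Circadian clock genes differed between the strains on both diets. In the clock, Arntl and Clock drive transcription of Per, Cry, Nr1d1 and the output factor Dbp from E-box sequences. Nr1d1 in turn represses Arntl, so Arntl and driven genes such as Nr1d1 and Dbp peak at opposite times of day. Of 21 clock genes 13 were lower and 4 higher in WSB/EiJ on the deficient diet, and 13 lower and 6 higher on the control diet. Arntl read 377, 422, 437 and 389 in WSB/EiJ livers, against 17.98, 14.9, 10.6 and 21.9 in C3H/HeJ livers, a difference of 4.68 ± 0.21 (adjusted p = 1.83e-06), and 4.47 ± 0.32 on the control diet. Dbp read 189.7, 127, 142 and 141 in WSB/EiJ livers, against 12910, 14240, 18600 and 18480 in C3H/HeJ livers, a difference of -6.74 ± 0.17 (adjusted p = 3.02e-07), and -6.86 ± 0.20 on the control diet. In neither gene did the arrays of the strains overlap. Per3, a light-entrained clock component, was at least 14.3-fold lower in WSB/EiJ, where its probe was not well above background on any WSB/EiJ array (adjusted p = 1.17e-06). Ciart and Nr1d1, repressors of the clock named after their values were seen, were lower (-4.59 ± 0.61, adjusted p = 0.000588, above background on 1 of 4 WSB/EiJ arrays, and -4.06 ± 0.30, adjusted p = 2.76e-05, above background on 3 of 4 WSB/EiJ arrays). The other 3 higher genes, also named after their values were seen, were Cry1 (3.02 ± 0.63, adjusted p = 0.00541, above background on 1 of 4 C3H/HeJ arrays), Nfil3 (1.53 ± 0.20, adjusted p = 0.000569) and Clock (1.00 ± 0.17, adjusted p = 0.00174). The labels give no collection time for either strain.

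The promoters of Ciart and Per3 are shown because they hold the most clock motifs among the lower genes of this set. The sequences are those of RefSeq on GRCm38.p6, from 250 bases before to 50 after the gene start, 5′ to 3′ on the gene's strand, with E-box (CACGTG) and D-box (TTATGNAA) matches on either strand in capitals.
Ciart: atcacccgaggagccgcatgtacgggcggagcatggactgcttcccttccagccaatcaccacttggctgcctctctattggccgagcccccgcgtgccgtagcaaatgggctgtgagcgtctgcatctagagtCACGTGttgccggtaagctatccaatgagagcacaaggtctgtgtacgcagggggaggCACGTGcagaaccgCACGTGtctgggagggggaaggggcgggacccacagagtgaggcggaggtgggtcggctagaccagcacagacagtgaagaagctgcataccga
Per3: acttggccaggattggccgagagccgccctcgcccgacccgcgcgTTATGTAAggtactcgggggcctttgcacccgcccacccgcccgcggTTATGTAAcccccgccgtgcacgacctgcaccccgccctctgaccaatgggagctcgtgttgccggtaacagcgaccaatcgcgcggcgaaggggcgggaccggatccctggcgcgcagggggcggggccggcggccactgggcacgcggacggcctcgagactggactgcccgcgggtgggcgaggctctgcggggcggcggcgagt
The Ciart promoter lies on the minus strand at chr3:95882179-95882478 and holds 3 E-boxes. The Per3 promoter, on the minus strand at chr4:151044616-151044915, holds 2 D-boxes. No base of an E-box match was also in a D-box match. Promoters were at hand for 18 of the 22 clock genes, 23 promoters in all, and a gene counted if any of its promoters matched. Of these genes 5 had an E-box, 3 a D-box and 5 a half-site of the ROR receptors (AGGTCA), also searched. The promoters of Nr1d1 and Dbp held no E-box in this stretch. Of 32851 promoters of all genes 7.15% hold an E-box, 3.38% a D-box and 16.3% a ROR half-site, each at least once. These are shares of promoters and not of genes. A match describes the letters and does not show binding.

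**Figure D5:**
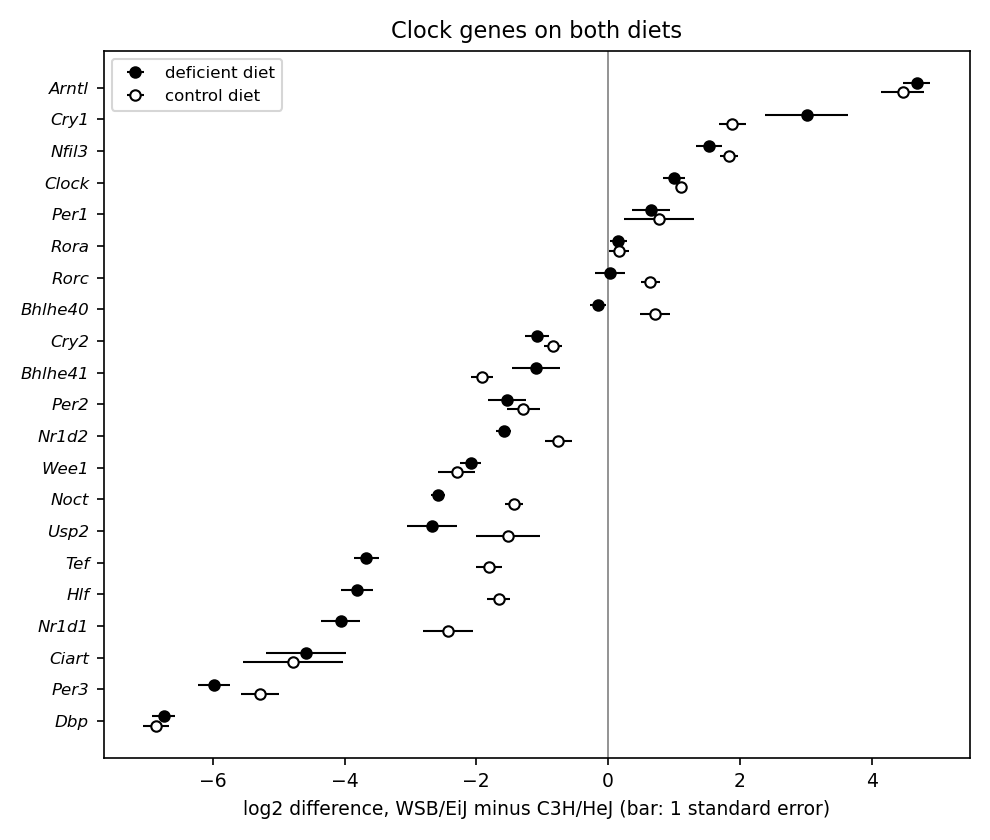
Log2 difference, WSB/EiJ minus C3H/HeJ, of the 21 tested clock genes on the deficient diet (filled circles) and on the control diet (open circles), with bars of 1 standard error (n = 4 arrays per strain and diet). Arntl is highest and Dbp lowest on both diets.

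Markers of blood, pancreas, fat and the liver surface were measured beside these groups. Erythroid genes were lower in 6 of 7 on the deficient diet and 6 on the control diet. Hbb-bs, an adult beta globin whose copies may share signal, read 207, 349, 426 and 293 in WSB/EiJ livers, against 1065, 682, 837 and 1075 in C3H/HeJ livers, a difference of -1.55 ± 0.24 (adjusted p = 0.0013). Genes of the exocrine pancreas, which adjoins the liver, were higher in 3 and lower in 0 of 8 tested, with medians of -0.01, 0.35 and 2.50 within slides 1, 2 and 3. Try4, a trypsin that may share signal with other trypsin genes, read 54.0, 84.1, 9.003 and 1238 in WSB/EiJ livers, against 0.82, 0.791, 1.38 and 0.922 in C3H/HeJ livers and was at least 21.1-fold higher in WSB/EiJ, its probe not being well above background on any C3H/HeJ array (adjusted p = 0.00355), a call that ended with normexp background correction (adjusted p = 0.0629). WSB/EiJ replicate 4 stood highest and replicate 3 lowest of its group. The summed signal of the pancreas list ran from 1143 to 5496 in WSB/EiJ livers, against 954 to 1576 in C3H/HeJ livers. The part of pancreatic tissue in the differences of other genes was not tested. Adipose genes passed in 0 of 2 tested. Of 2 mesothelial genes 1 was higher, the transcription factor Wt1 (2.49 ± 0.29, adjusted p = 0.000266). In iron handling 4 genes were higher and 2 lower of 18, the lower count being 5 without C3H/HeJ replicate 1. Bmp6, the signal by which sinusoidal cells report iron stores, was higher by 1.5 ± 0.26 (adjusted p = 0.00217). Hamp2, the other hepcidin gene of mice, read 248, 34.8, 31.98 and 26.9 in WSB/EiJ livers, against 815, 512, 6709 and 2894 in C3H/HeJ livers, a difference of -5.02 ± 0.95 (adjusted p = 0.00339) that was matched on the control diet (-5.03 ± 0.47).

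Ranked by size among genes above background in both strains, the largest positive differences after Sult1e1, apart from the variant 1 probe of Hsd17b13, were those of Ctse, an aspartic protease (6.10 ± 0.34, adjusted p = 6.11e-06, above background on 3 of 4 C3H/HeJ arrays), Serpina3f, a serine protease inhibitor (5.87 ± 0.36, adjusted p = 1.06e-05), and Csn3, a casein (5.08 ± 0.31, adjusted p = 9.44e-06, above background on 3 of 4 C3H/HeJ arrays). The other Serpina3f probe differed by 0.75. The largest negative ones were Adrb3, a beta-adrenergic receptor (-7.57 ± 0.40, adjusted p = 4.36e-06, above background on 3 of 4 WSB/EiJ arrays), Cyp2c37, Tmem14c, a mitochondrial membrane protein needed for heme synthesis (-6.91 ± 0.20, adjusted p = 4.56e-07), and H2-Q1 (-6.85 ± 0.48, adjusted p = 2.03e-05). Ctse read 384, 484, 447 and 497 in WSB/EiJ livers, against 9.15, 7.42, 9.21 and 3.01 in C3H/HeJ livers. Adrb3 read 2.70, 4.35, 6.74 and 9.54 in WSB/EiJ livers, against 658, 910.3, 1441 and 1150 in C3H/HeJ livers. The strains were separated on every array in both genes. On the control diet Tmem14c differed by -5.32 ± 0.25, Adrb3 was above background on 0 of 4 WSB/EiJ arrays and 4 of 4 C3H/HeJ arrays, and Ctse on 4 of 4 WSB/EiJ arrays and 0 of 4 C3H/HeJ arrays. Genes well above background in 1 of the strains gave lower bounds. Ces2h, a carboxylesterase, was at least 47.1-fold higher in WSB/EiJ, its probe not being well above background on any C3H/HeJ array (adjusted p = 3.21e-06), and Serpina3a was at least 26.8-fold higher in WSB/EiJ, its probe not being well above background on any C3H/HeJ array (adjusted p = 1.44e-05). Mtnr1a, a melatonin receptor, was at least 135-fold lower in WSB/EiJ, where its probe was not well above background on any WSB/EiJ array (adjusted p = 9.46e-07), and Nxpe2 was at least 79.1-fold lower in WSB/EiJ, where its probe was not well above background on any WSB/EiJ array (adjusted p = 8.03e-07).

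Part of the deficient-diet difference was present without the deficiency. On the control diet 6356 genes (41.2%) differed between the strains. Those called on both diets with the same sign numbered 3344, which is 48.6% of the deficient-diet calls and 52.6% of the control-diet calls. Another 318 were called with opposite signs, and 3225 passed on the deficient diet and not on the control diet. A test of the change in the difference itself, deficient minus control, passed for 3476 genes (22.6%), up for 9.03% and down for 13.5% of all genes. The split depended on the scaling, since 40% of them were up on the main scale, 57.5% with quantile normalization, 64.6% with median centring, 62.9% after normexp background correction, and 80.7% with spike-in scaling. Of the 6887 deficient-diet calls, 2234 also passed this test.

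Among genes above background in both strains, Ly6a, a membrane protein of stem cells and interferon-treated cells, moved up most. It read 1015, 763, 752 and 657 in WSB/EiJ livers, against 604, 834, 399 and 378 in C3H/HeJ livers on the deficient diet, a difference of 0.58 ± 0.26 (adjusted p = 0.102), against -5.43 ± 0.44 on the control diet (change 6.01 ± 0.54, adjusted p = 1.24e-05). Fut1, a fucosyltransferase, moved up as well (adjusted p = 1e-06), and its probe was above background on 0 of 4 WSB/EiJ control arrays. Nuggc, a nuclear GTPase of lymphoid tissue, moved down most, at -5.62 ± 0.47 (adjusted p = 5.25e-05) on the deficient diet against 1.26 ± 0.24 on the control diet (change -6.88 ± 0.57, adjusted p = 6.36e-06). Cyp2c50 and Cyp2c54 followed, with changes of -6.01 ± 0.61 and -5.91 ± 0.60 (adjusted p = 2.66e-05 and 2.53e-05). Cyp39a1, a sterol hydroxylase of bile acid synthesis, differed by -2.32 ± 0.27 (adjusted p = 0.000291) on the deficient diet and by -6.54 ± 0.36 on the control diet. Gene groups were counted by the same test, here and above on the main scale only. Macrophage and monocyte markers moved up in 21 and down in 0 of 27, cell cycle genes up in 14 and down in 1 of 27, and clock genes up in 0 and down in 6 of 21. Cytochrome P450 genes moved up in 0 and down in 17 of 29.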

How the data were processed

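Total liver RNA was hybridised to 1-colour Agilent mouse arrays, 24 in the series. Values were intensities: per the file headers the authors scanned each array and made a background-subtracted processed signal with Agilent Feature Extraction 10.7. The deposited normalized table holds the same intensities multiplied by a factor per array and served as an alternative. All 24 of its columns match a sample, and 0 do not. The build of the probe coordinates in the array files is mm9.

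Here, the log2 processed signal was taken relative to each array's 75th percentile, without control spots and with 3332 outlier-marked spots left out. A probe was tested if at least 1 of 4 groups (WSB/EiJ and C3H/HeJ on either diet) had it well above background on each of its 4 arrays, and a gene was represented by its brightest tested probe. Of 55681 gene probes 32911 could be named, 26762 by accession, 3819 by symbol, 639 by synonym and 1691 by the file's own name, while 22770 have no name here. Tests were limma 3.58.1 (lmFit and eBayes, R 4.3.3, with the data.table package in version 1.17.8), 2-sided, adjusted by Benjamini-Hochberg over 15409 genes. The deficient-diet and control-diet comparisons used 8 arrays each, and the change between diets 16. Adjusted p-values in the text come from these limma fits.

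A fold given as "at least" sets the mean of the bright group against, for each dim array, the probe's own signal or, if higher, the dimmest signal that still counted as well above background on that array. Named genes were the largest differences of each kind, up to 3 members of each gene list with the lowest adjusted p, and a panel of liver genes, and 12 more were named after their values were seen. Some genes within the rule are not reported here. Members and lists were chosen with earlier results of these data known. Promoter sequences came from RefSeq (GRCm38.p6), and motif searches covered both strands.

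The steps were tested on simulated data. Precision is limited by the 4 arrays per group. Alternatives covered scaling, background correction, probe filters, slide, weights, samples in the fit, thresholds and each array left out.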

Additional observations from a re-analysis of the deposited data

Results flagged for a closer look

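Among 160 genes named in the text and 320 sets of 4 arrays, 13 single arrays lay so far from the other 3 of their strain that the gap passed Dixon's 95% limit. Chance gives about 1 such set in 20. WSB/EiJ deficient replicate 3 stood apart in scaled signal of Cpe at 651.6 (1525 to 1754 in the other 3), Cyp2c50 at 262.7 (98.72 to 114.3 in the other 3), Cyp2e1 at 45870 (31180 to 33120 in the other 3) and Fgf21 at 1263 (2921 to 3037 in the other 3). WSB/EiJ deficient replicate 3 also stood apart in scaled signal of Gys2 at 4431 (3457 to 3558 in the other 3), Timp1 at 399 (836.9 to 943.6 in the other 3) and Trem2 at 2221 (3079 to 3206 in the other 3). WSB/EiJ deficient replicate 2 stood apart in scaled signal of Nfil3 at 1927 (1477 to 1507 in the other 3) and Nxpe2 at 0.5868 (1.097 to 1.191 in the other 3). WSB/EiJ deficient replicate 1 stood apart in scaled signal of Hamp2 at 247.8 (26.9 to 34.75 in the other 3). C3H/HeJ deficient replicate 4, the deficient array nearest to the control arrays, stood apart in Fgf21 at 506.5 (979 to 1008 in the other 3), Mogat1 at 99.61 (356.6 to 420.4 in the other 3) and Serpina3a at 4.066 (1.153 to 1.241 in the other 3). The Nxpe2 and Serpina3a signals named here were not well above background.

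The strain difference itself differed between the diets for 96 of the 160 named genes (limma interaction over 16 arrays, adjusted p at most 0.0498 in each), and the values that follow are the log2 difference of WSB/EiJ minus C3H/HeJ on the deficient diet minus the same on the control diet. In 18 of them the probe was above background on 0 of 4 arrays in at least 1 of the 4 strain and diet groups, so their values depend on a dim signal. The median over all genes was -0.155 on the main scale and 0.26 with spike-in scaling. With spike-in scaling 1999 genes moved up and 479 down, against 1391 up and 2085 down on the main scale. The changes of single genes were taken on the main scale only and were not checked under the alternatives, so small values may depend on the scaling.

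Among genes of macrophages and of inflammation the value was 2.49 for Cd68, 3.29 for Lyz2, 2.88 for Lyz1, 3.35 for Trem2, 3.84 for Gpnmb, 3.91 for Atp6v0d2, 2.82 for Lpl, 2.24 for Ccl7 and 1.31 for Tlr4, all toward higher signal in WSB/EiJ. Tlr5, at -2.37, went the other way. Of the interferon and antigen presentation genes, Ly6a changed by 6.01, Oas1a by 4.37, Oas1g by 3.21, Mx1 by 2.36 and H2-Ea by 1.94, whereas H2-Aa changed by -5.45 and H2-Q1 by -4.63.

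Among the named matrix and myofibroblast genes the change was 3.14 for Lox, 1.95 for Loxl2, 1.88 for Timp1, 1.71 for Mmp2, 2.28 for Plau, 2.43 for Plaur, 1.25 for Hgf and 0.72 for Tgfbr1, and -4.33 for Col5a2. Genes of division and growth arrest gave 2.84 for Ube2c, 1.9 for Ccna2, 1.64 for Mki67, 0.72 for Aurka, 1.46 for Btg2 and 1.02 for Trp53inp1, against -1.16 for Ccnd1 and -2.45 for Cdkn1a. Fetal, duct and progenitor genes gave 4.48 for Cpe, 3.12 for Akr1c18, 2.41 for H19, 1.89 for Afp and 2.32 for Cldn4. Stress genes gave 3.62 for Trib3, 3.59 for Fgf21, 2.98 for Slc7a11, 1.78 for Gpx3 and 1.3 for Ddit3. Other upward changes were 5.11 for Try4, 4.95 for Fut1, 4.74 for Csn3, 4.22 for Cyp39a1, 2.44 for Wt1, 1.76 for Pfkp, 1.53 for Bmp6, 1.32 for Hilpda and 1.3 for Abcc4.

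Among the named hepatocyte enzymes of drug and steroid metabolism the change was -6.71 for Cyp2b9, -6.01 for Cyp2c50, -5.91 for Cyp2c54, -5.78 for Cyp2c37, -5.67 for Cyp2b10, -3.6 for Hsd3b5, -3.36 for Cyp2a4 and -1.38 for Cyp2e1. Their regulators and those of the hepatocyte state gave -2.82 for Nr1i3, -1.11 for Ppara, -0.85 for Hnf4a, -0.68 for Cebpa, -0.98 for Mlxipl, -1.46 for Ghr and -1.63 for Nr1d1. The pericentral genes Oat, Sp5, Tbx3 and Glul changed by -2.92, -2.59, -1.86 and -1.79. Lipid and bile acid genes gave -5.59 for Mogat1, -2.35 for G0s2, -2.07 for Thrsp, -1.96 for Cyp7a1, -1.49 for Fitm2, -1.45 for Slco1b2, -1.29 for Pex11a, -1.17 for Fdft1, -1.13 for Abcg8, -0.63 for Apob and -0.62 for Abcc2. Genes of methyl group and phospholipid metabolism gave -2.96 for Nnmt, -1.57 for Mat1a, -1.52 for Tet1, -1.05 for Bhmt and -0.86 for Lpcat3. Other downward changes were -6.88 for Nuggc, -2.43 for Serpina3a, -2.07 for Mtnr1a, -2.06 for Igfals, -1.6 for Nxpe2, -1.59 for Tmem14c, -1.47 for Stab2 and -0.93 for Slc2a2.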

How the results depend on the processing

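The count of 6887 genes that differed on the deficient diet ran from 5203, with spike-in scaling, to 9003, with unnamed probes included, under the alternatives that kept the threshold. It was 5250 to 7036 over single arrays left out, and 5317 to 7108 (control diet) and 2544 to 4325 (change between diets) in the other comparisons. An adjusted p of 0.01 left 4098 genes on the deficient diet, 4103 on the control diet and 1436 for the change, and a log2 difference of at least 1 left 2870, 2205 and 1711. These fall by construction. On the control diet 55.9% of calls were higher in WSB/EiJ, and 34% with spike-in scaling. Of the 139 named genes that passed on the deficient diet, 131 kept that call in every alternative apart from the stricter thresholds. None of the 139 changed sign. Cd36, Hnf4a, Mttp and Saa1, which had not passed, changed sign under at least 1 alternative and passed under none. The other 8 of the 139 lost their call in at least 1 alternative and are given with their values in the report. Normexp made the difference of 37 of the 139 over 1.5 times smaller, and the mean of probes that of 9. With the mean of probes Hsd17b13 was at 0.75 and Itgam at -0.31. No alternative used the other probes of these genes alone, so the kept signs do not cover the probes that go the other way. Of those that had not passed, Hspa5 passed with quantile normalization (0.48, adjusted p = 0.0187), Alb with all 24 arrays in the fit (-0.39, adjusted p = 0.0345), and Apob and Bhmt with the mean of their probes (-1.0, adjusted p = 0.000905, and -1.42, adjusted p = 0.00369). Single arrays left out brought in Cidec, Gpc3, Spink1 and Ly6a, median centring Ly6a and Ly6d, and array weights Ccnd1. The cause was not tested.

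Replicate numbers did not pair the samples: the correlation of deviations between same-numbered arrays of the strains was -0.02, 0.155, 0.048 and -0.259. With the replicate block 5649 genes differed on the deficient diet, 5491 on the control diet and 3175 for the change. Low signal limits the 18 changes between diets that rest on a dim group, and 4 arrays per group limit small differences.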
